A study of Mus musculus with 9 samples.

Results

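Collagen chains and the proteins of elastic fibres build the fabric of skin, cartilage and basement membranes. The rows described here are every gene whose symbol has the form of a collagen chain (Col, number, a, number) together with Eln, Fbn1, Fbn2, Fbln1, Fbln2, Fbln5, Lox, Loxl1, Loxl2 and Emilin1. This rule found 54 of the 25124 genes in the table, 44 collagen chains and 10 elastic fibre genes, and it used no expression value. By role they were divided into 8 fibrillar chains, 8 chains of networks and beaded filaments, 10 chains of the basement membrane zone, 6 fibril-associated chains, 7 cartilage chains, 5 transmembrane and other chains and the 10 elastic fibre genes.

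RNA was sequenced from whole ear skin of C57BL/6 mice, a common inbred laboratory strain. All mice had S. epidermidis LM087, a skin bacterium, swabbed on the ears every other day, and tissue was taken on day 8. The 5 libraries of the bacterium group (Sepi) had the bacterium alone, and the 4 libraries of the antibody group (Sepi_aCTLA4) came from mice that were also given anti-CTLA-4, which blocks an inhibitory receptor of T cells. There was no group without the bacterium, so the comparison is of antibody against no antibody on associated skin, and the dose of the antibody, the age of the mice and whether each library came from its own animal were not stated in these sources. P-values therefore measure the spread between these libraries.

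As background, fibrillar collagens such as types I, III and V form the load-bearing fibres of the dermis, and fibril-associated collagens sit on the surface of those fibres. Type IV collagen forms the sheet of every basement membrane, while type VII anchors the epidermal basement membrane to the dermis and type XVII spans the membrane of basal keratinocytes at hemidesmosomes. Elastic fibres have a core of elastin, cross-linked by lysyl oxidases on a scaffold of fibrillin microfibrils, and the ear pinna also holds a plate of cartilage with collagens of its own.

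The stretches of DNA just before the start sites of 5 members are shown because the results below turn on these genes: the neighbours Col4a5 and Col4a6, which share a divergent arrangement on chromosome X, the anchoring genes Col7a1 and Col17a1, and Emilin1, which moved the other way. Each is the 250 bases before the annotated start, 5′ to 3′ on the strand of the gene, from RefSeq on GRCm38.p6, the build also called mm10, and contains no transcribed base of that gene. They lie at chrX:141475169-141475418 (plus strand), chrX:141474077-141474326 (minus), chr9:108953336-108953585 (plus), chr19:47692043-47692292 (minus) and chr5:30913536-30913785 (plus). Capitals mark matches on either strand to the short motif CCAAT, to the motif GGGCGG or to the motif TATAAA.
Col4a5: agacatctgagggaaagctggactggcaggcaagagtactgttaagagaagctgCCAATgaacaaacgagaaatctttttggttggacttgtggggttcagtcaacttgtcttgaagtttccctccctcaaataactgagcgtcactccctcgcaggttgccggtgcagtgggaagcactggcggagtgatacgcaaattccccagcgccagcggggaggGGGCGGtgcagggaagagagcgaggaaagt
Col4a6: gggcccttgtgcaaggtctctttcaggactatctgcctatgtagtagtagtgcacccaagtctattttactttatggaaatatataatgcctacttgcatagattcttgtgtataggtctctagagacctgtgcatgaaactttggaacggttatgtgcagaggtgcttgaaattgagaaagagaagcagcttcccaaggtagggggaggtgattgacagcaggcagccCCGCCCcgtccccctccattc
Col7a1: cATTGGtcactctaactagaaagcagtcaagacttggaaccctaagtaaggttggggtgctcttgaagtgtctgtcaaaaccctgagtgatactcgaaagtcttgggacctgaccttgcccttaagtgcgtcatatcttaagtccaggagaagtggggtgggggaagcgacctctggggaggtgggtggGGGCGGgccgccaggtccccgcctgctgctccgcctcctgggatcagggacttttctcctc
Col17a1: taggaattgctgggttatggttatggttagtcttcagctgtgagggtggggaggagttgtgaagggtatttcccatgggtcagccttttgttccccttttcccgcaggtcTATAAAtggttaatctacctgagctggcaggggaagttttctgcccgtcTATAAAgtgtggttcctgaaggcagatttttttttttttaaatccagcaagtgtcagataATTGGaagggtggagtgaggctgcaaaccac
Emilin1: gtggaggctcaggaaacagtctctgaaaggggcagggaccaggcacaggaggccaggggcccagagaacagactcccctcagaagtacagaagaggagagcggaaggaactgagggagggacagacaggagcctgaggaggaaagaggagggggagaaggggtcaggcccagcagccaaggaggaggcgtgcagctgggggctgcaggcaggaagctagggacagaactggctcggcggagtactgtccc

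CCAAT was found once upstream of Col4a5, Col7a1 and Col17a1, GGGCGG once upstream of Col4a5, Col4a6 and Col7a1, and TATAAA at 2 places upstream of Col17a1. The Emilin1 stretch held none of these letters. Of 32851 promoter stretches of the same length, 33.9% held CCAAT, 32.7% held GGGCGG and 12.4% held TATAAA, and no match overlaps another in the stretches shown. A match is a description of the letters and not a binding site, and G and C made up 54% of the letters before Col4a5 and 47.6% before Col4a6. The start sites of Col4a5 and Col4a6 lie 1343 bases apart on opposite strands, those of Col4a3 and Col4a4 lie 72 bases apart, and the rows of Col4a1 and Col4a2 overlap by 21 bases. The table of RefSeq promoters matched 40 of the 54 members.

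Values were deposited as TPM (the usual measure of transcript abundance, reads divided by gene length and scaled to a common total). In this table the length was the whole genomic span of the gene with its introns. TPM multiplied by span gave whole multiples of the worth of 1 read for 100% of the 14320 to 15395 values checked in each library, within 0.1 reads. Read numbers could therefore be recovered, and the libraries held between 10214000 and 13869000 reads in gene rows. Among the members the span was between 1.94 and 74.5 times the exon length, so a deposited TPM understates genes with long introns. A value of 1 TPM in a span of 200000 bases stood for between 272 and 363 reads.

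For this reason levels are compared between genes only as RPM per exonic kilobase, where RPM is the number of reads scaled to a total of 1000000 per library. Reads in introns are included in these levels. On that scale the highest levels over the 9 libraries were those of the type III and type I chains, with 351 for Col3a1, 231 for Col1a2 and 229 for Col1a1. The hemidesmosome chain Col17a1 followed at 173, then the network chain Col8a1 at 85.3, the beaded filament chain Col6a1 at 83.2 and Eln at 68.3. Col1a2 and Col1a1, next to each other in this order, differed by less than their spread over libraries. The order by TPM put Col8a1 at place 11 and Col5a2 at place 15, against places 5 and 10 per exonic kilobase. At the low end stood Col26a1 at 0.303 and Col6a4 at 0.0273.

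**Figure D1:**
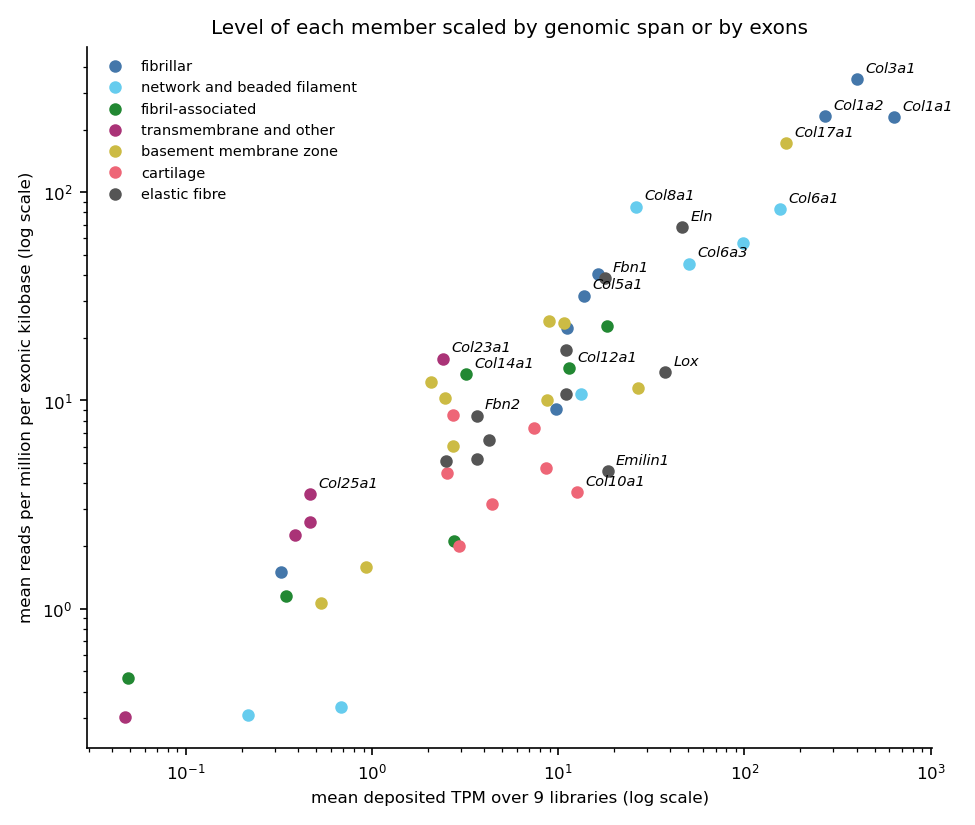
Each dot is a member, with its mean deposited TPM over 9 libraries on the x axis and its mean RPM per exonic kilobase on the y axis, both log scales, coloured by class; Col6a4, near 0, is left out. Genes with long introns such as Col8a1 and Col23a1 lie above the general trend, and the compact Emilin1 and Col10a1 lie below it.

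The antibody group differed from the bacterium group in a minority of members, more often lower than higher. On log2(TPM + 1), limma (linear models with variances shared over genes) tested the 42 members that reached 1 TPM in at least 4 libraries and called 8 at a Benjamini-Hochberg adjusted p under 0.05, against 11.6% of all 15704 genes tested. Col12a1 and Emilin1 rose, which is 4.76% of the tested members against 7.16% of all genes. Col4a6, Col7a1, Col17a1, Col11a2, Col20a1 and Eln fell, which is 14.3% of the tested members against 4.48% of all genes. The median log2 change was -0.01 over the tested members and -0.01 over all genes. By class the medians of the tested members were -0.01 for fibrillar chains, 0.01 for networks and beaded filaments, -0.20 for the basement membrane zone, -0.20 for fibril-associated chains, -0.24 for cartilage and 0.11 for elastic fibre genes.

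The same comparison on the recovered reads, added after the data were seen, tested 53 members with at least 10 reads in at least 4 libraries. It called 19, all 8 above in the same direction among them, against 18.4% of 16500 genes. Higher were Col12a1, Emilin1, Col4a1, Col4a2, Lox and Loxl1 (11.3% of members, 11.1% of all genes). Lower were Col4a5, Col4a6, Col7a1, Col17a1, Col11a2, Col9a1, Col20a1, Col16a1, Col22a1, Col8a2, Col27a1, Col25a1 and Eln (24.5% of members, 7.33% of all genes). The groups did not overlap in RPM for 6 members that were higher and 9 that were lower, while 10.6% and 6.93% of all genes did not overlap in these directions.

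The calls on TPM lay close to the threshold. Without bacterium replicate 1 or 4 no member was called. Without bacterium replicate 2 or antibody replicate 2, 2 members were higher and 0 lower. Without antibody replicate 1, 1 was higher and 0 lower. Without bacterium replicate 5, antibody replicate 3 or antibody replicate 4, 0 were higher, and 4, 1 and 2 were lower. Without bacterium replicate 3, 2 members were higher and 7 lower. Lower calls on TPM therefore did not outnumber higher ones in every fit. On reads, 13 of the 19 calls held in all 9 such fits, and the other 6 are marked below.

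**Figure D2:**
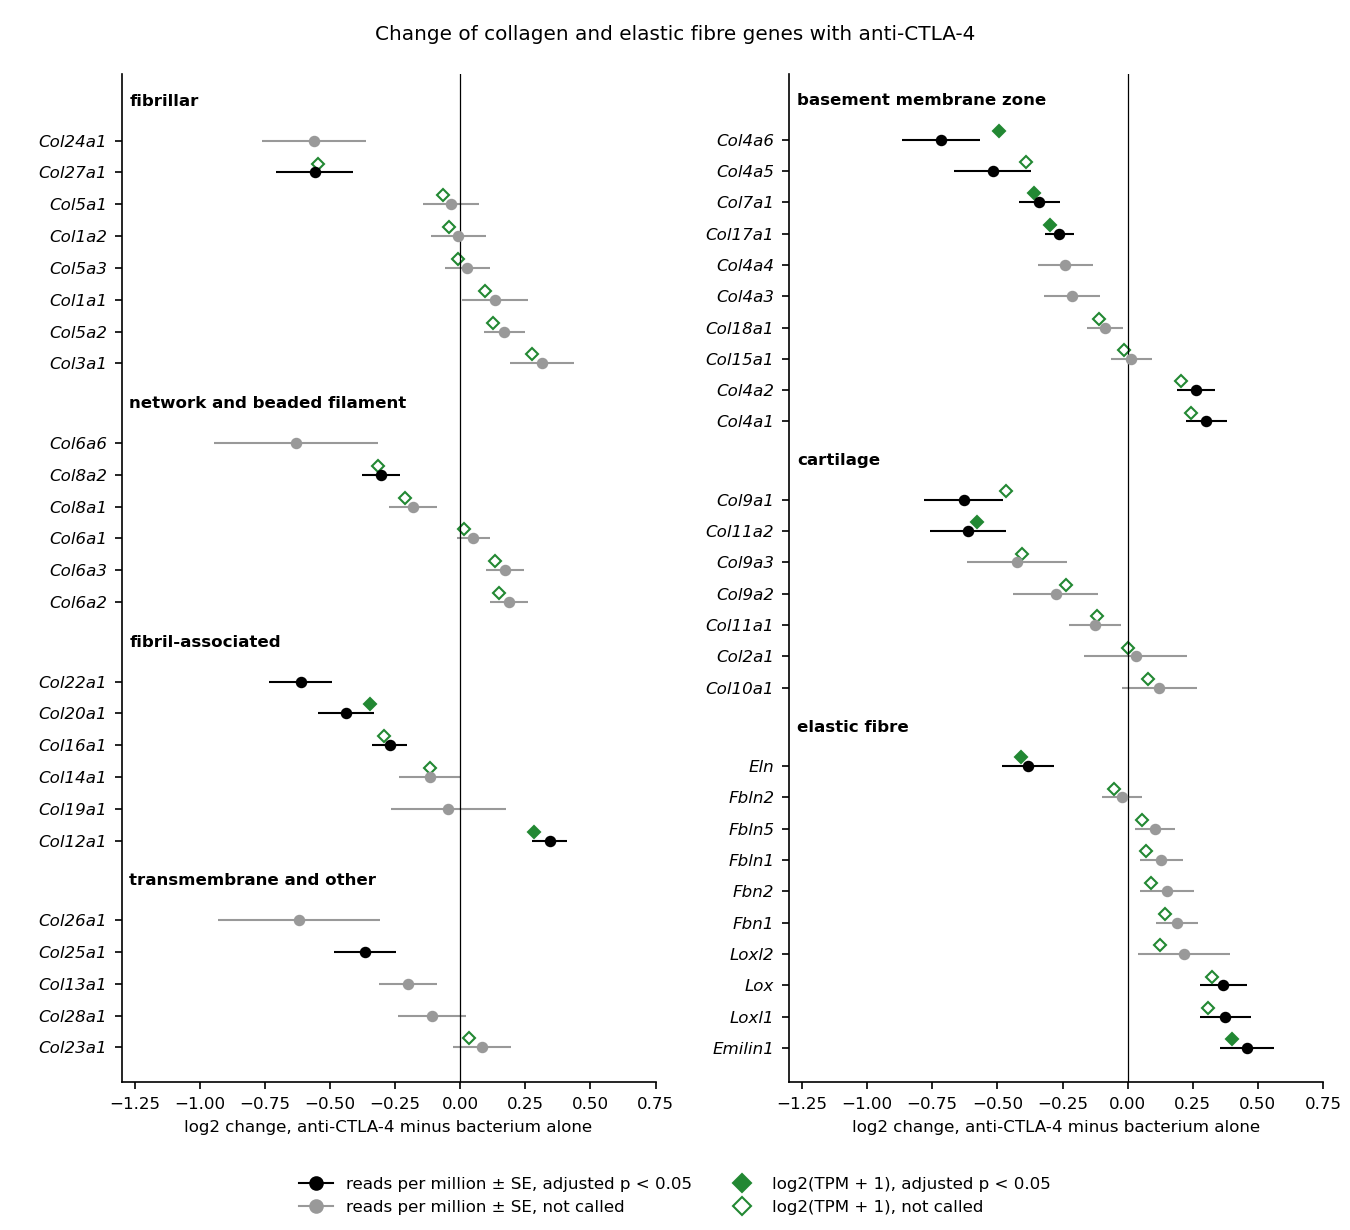
The log2 change of each member, antibody minus bacterium alone, is plotted by class, as RPM with its standard error (circles) and as log2(TPM + 1) (diamonds, for members above the TPM filter); filled black circles and filled diamonds passed the adjusted p threshold of 0.05. Col6a5, with a standard error of 1.12, and Col6a4, which was not tested, are left out. None of the type I, III, V and VI chains plotted passed, the type IV pairs Col4a1 with Col4a2 and Col4a5 with Col4a6 lie on opposite sides, and Eln lies opposite Lox, Loxl1 and Emilin1.

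In the basement membrane zone 3 of 8 tested chains fell on TPM and none rose, where 4.48% of all genes were lower and 7.16% higher. On reads 4 of 10 fell and 2 rose, where 7.33% of all genes were lower and 11.1% higher. The anchoring chains were among those that fell. Col17a1 (chr19:47646341-47692042, minus strand), the hemidesmosome collagen, was at 187, 188, 169, 194 and 169 TPM in the 5 bacterium libraries and at 147, 137, 165 and 141 TPM in the 4 antibody libraries. The groups did not overlap, and the means were 181 ± 11.5 TPM (SD, n = 5) and 148 ± 12.4 TPM (SD, n = 4). The change was -0.30 on the log2(TPM + 1) scale (SE 0.07, limma adjusted p = 0.0319). Col7a1 (chr9:108953586-108984875, plus strand), which forms anchoring fibrils, was at 30.2, 32.4, 23.9, 33.4 and 28.6 TPM without and at 22.2, 23.4, 25.2 and 20.5 TPM with the antibody. Bacterium replicate 3 was the lowest of its group and lay inside the antibody range. The change was -0.36 (SE 0.10, adjusted p = 0.0476).

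Markers of basal keratinocytes, the cells that carry hemidesmosomes, are given beside these chains. None of 6 (Krt5, Krt14, Krt15, Trp63, Itga6, Itgb4) was called on either scale, none was at 0, and their summed level was 4810 to 5613 RPM without and 5149 to 6116 with the antibody. Krt5 and Krt14, which carry most of that sum, had log2(TPM + 1) changes of 0.15 and 0.12, and the other 4 had negative ones, of -0.44 for Krt15, -0.23 for Trp63, -0.11 for Itga6 and -0.15 for Itgb4. Itga6 and Itgb4 are the integrin subunits of hemidesmosomes. The median of the list was -0.13. Of 4 hair follicle markers tested, Krt73 and Msx2 fell. The summed level of that list was 17.4 to 32.9 RPM without and 10.6 to 15.2 with the antibody. Krt35 was at 0 in bacterium replicate 3 and antibody replicate 2. The part of basal keratinocytes or the hair follicle in the change of the anchoring chains was not tested. In bulk tissue, fewer cells of a type and less RNA per cell cannot be told apart.

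Type IV chains split by pair. The common chains Col4a1 and Col4a2, found in basement membranes throughout the body, were higher on reads, and the chains Col4a5 and Col4a6, which assemble with each other in a subset of basement membranes that includes the one under the epidermis, were lower. Col4a1 was at 135, 149, 136, 146 and 140 RPM in the bacterium libraries and at 205, 154, 158 and 185 in the antibody libraries. Col4a2 was at 136, 143, 132, 149 and 149 without and at 190, 157, 153 and 183 with the antibody. Neither gene's groups overlapped, and antibody replicates 1 and 4 were the highest for both.

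On reads the log2 change was 0.30 for Col4a1 (SE 0.08, limma adjusted p = 0.0188) and 0.26 for Col4a2 (SE 0.07, adjusted p = 0.0231). Neither passed on log2(TPM + 1), at adjusted p = 0.0893 and 0.109. On reads the Col4a1 call was lost without antibody replicate 4 (adjusted p = 0.0544), and the Col4a2 call without bacterium replicate 1 (0.0513), antibody replicate 1 (0.0711) or antibody replicate 4 (0.0676). In TPM, Col4a1 was at 9.27, 10.4, 9.25, 10.7 and 9.42 without and at 13.4, 10.3, 11.3 and 12.3 with the antibody, where antibody replicate 2 lay among the bacterium libraries.

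Col4a6 was at 2.02, 2.97, 1.93, 3.21 and 2.58 TPM without and at 1.17, 1.81, 1.75 and 1.29 TPM with the antibody, and the groups did not overlap. It fell by 0.49 on the log2(TPM + 1) scale (SE 0.14, limma adjusted p = 0.0465) and by 0.72 on the reads scale (SE 0.15, adjusted p = 0.00600). Its neighbour Col4a5 was at 68.0, 92.5, 58.6, 94.4 and 74.3 RPM without and at 45.2, 65.3, 59.2 and 45.9 with the antibody, where bacterium replicate 3 lay within the antibody range. Its change was -0.52 on reads (SE 0.15, adjusted p = 0.0287) and was not called on TPM (adjusted p = 0.112). The call on reads was lost without bacterium replicate 2 (0.0707) or 4 (0.0617) or antibody replicate 1 (0.0868) or 4 (0.0850).

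Bacterium replicates 2 and 4 were the highest and antibody replicates 1 and 4 the lowest for both Col4a5 and Col4a6. Per exonic kilobase, the ratio of Col4a5 to Col4a1 was between 0.436 and 0.653 without and between 0.223 and 0.429 with the antibody, given as a description with no test. The remaining pair, Col4a3 and Col4a4, was scarce at 9.68 ± 0.883 and 17.1 ± 2.10 RPM (SD, n = 5) without and 8.33 ± 0.711 and 14.5 ± 1.45 (SD, n = 4) with the antibody. Neither was called on reads (limma adjusted p = 0.188 and 0.139). Col15a1 and Col18a1, which link basement membranes to the stroma, had changes of -0.01 and -0.11 on log2(TPM + 1) and were not called.

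**Figure D3:**
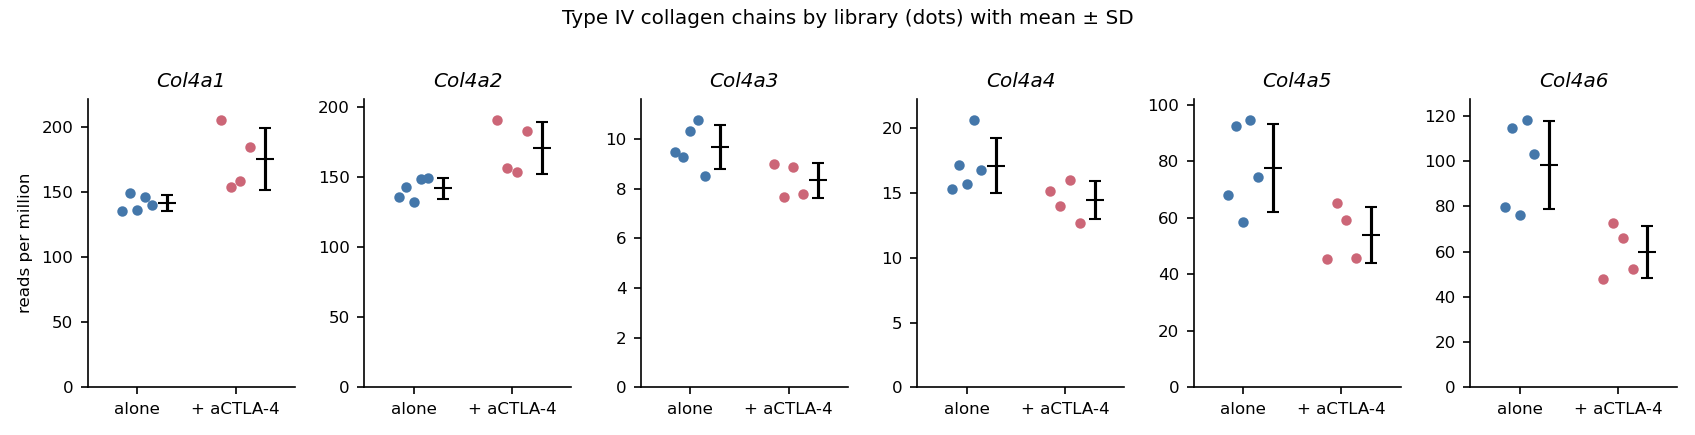
RPM of the 6 type IV chains in each library (dots; alone, the bacterium group, and + aCTLA-4, the antibody group), with mean and SD beside them. Col4a1 and Col4a2 are higher in all 4 antibody libraries than in any bacterium library, Col4a6 is lower in all 4, and Col4a5 overlaps at bacterium replicate 3.

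Endothelial cells rest on a basement membrane rich in Col4a1 and Col4a2. Of 6 endothelial markers none was called on TPM, while Pecam1 and Cdh5 were higher on reads, where 11.1% of all genes were higher. Kdr and Tek had negative changes on reads, of -0.04 and -0.13, and Emcn and Tie1 had changes of 0.06 and 0.12. The median change of the list on reads was 0.09. The summed level of the list was 130 to 142 RPM without and 146 to 154 with the antibody, with no marker at 0. Its part in the change of Col4a1 and Col4a2 was not tested.

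The main dermal fibrillar chains were not called on either scale. Col1a1, the larger type I chain, was at 482, 771, 536, 734 and 574 TPM without and at 695, 729, 660 and 539 TPM with the antibody. Col1a2, its partner chain, was at 224, 326, 252, 332 and 244 TPM without and at 272, 283, 279 and 227 TPM with the antibody. Col3a1, the type III chain, was at 281, 455, 373, 395 and 334 TPM without and at 466, 496, 449 and 360 TPM with the antibody. The groups overlapped for each of these genes, and bacterium replicates 2 and 4 lay above replicates 1, 3 and 5 in all 3.

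The log2(TPM + 1) change was 0.10 for Col1a1 (SE 0.16), -0.04 for Col1a2 (SE 0.13) and 0.28 for Col3a1 (SE 0.15, limma adjusted p = 0.262). Per exonic kilobase, the ratio of Col3a1 to Col1a1 was between 1.30 and 1.68 in the bacterium libraries and between 1.62 and 1.65 in the antibody libraries. The ratio of Col1a1 to Col1a2 was between 0.899 and 0.997 without and between 0.999 and 1.09 with the antibody, a small shift given as a description. The type V chains, which regulate fibril diameter, changed by -0.07 (Col5a1), 0.13 (Col5a2) and -0.01 (Col5a3) and were not called.

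Col27a1, a fibrillar chain known from developing cartilage, was the one fibrillar chain called on reads. It was at 10.6, 13.3, 10.1, 19.1 and 13.1 TPM without and at 8.69, 8.10, 7.41 and 10.1 TPM with the antibody, and bacterium replicate 3 lay within the antibody range. It was called on reads only, at -0.56 (SE 0.15, limma adjusted p = 0.0207), and that call was lost without antibody replicate 2 (0.0527) or 3 (0.0704). Col24a1 was below the TPM filter and not called on reads at -0.56 (adjusted p = 0.0702), although the voom version called it lower.

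Markers of fibroblasts, the main source of fibrillar collagen in the dermis, changed in 1 of 10 genes on TPM. Over all genes 7.16% were higher and 4.48% lower on TPM. The gene called was Thy1, at 97.7 ± 8.80 TPM (SD, n = 5) without and 131 ± 10.3 TPM (SD, n = 4) with the antibody. Pdgfrb, Dpt, Pi16, Fap, Clec3b and Mfap5 had negative log2(TPM + 1) changes, of -0.15, -0.22, -0.10, -0.27, -0.38 and -0.02. Pdgfra, Dcn and Lum had changes of 0.34, 0.03 and 0.14, and the median of the list was -0.06. On reads Thy1 and Pdgfra were higher and Fap was lower (limma adjusted p = 0.00190, 0.0141 and 0.0359), where 11.1% of all genes were higher and 7.33% lower. The list summed to between 1272 and 1680 RPM without and between 1487 and 1646 with the antibody, and none of its genes was at 0.

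Type VI collagen, which forms beaded filaments around cells, was not called either. Col6a1 was at 152, 165, 153, 169 and 135 TPM without and at 169, 153, 154 and 149 TPM with the antibody. Col6a2 was at 91.8, 100.02, 90.7, 99.3 and 84.0 TPM without and at 118, 97.6, 98.5 and 99.7 TPM with it. Col6a3 was at 41.9, 51.7, 46.8, 54.7 and 45.2 TPM without and at 58.1, 50.0, 51.0 and 51.8 TPM with the antibody. The groups overlapped in all 3, and antibody replicate 1 was the highest library for Col6a2 and Col6a3.

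The changes were 0.01, 0.15 and 0.13 on log2(TPM + 1). The short network chains of type VIII, known from vessel walls and the matrix under corneal endothelium, did not pass on TPM. The change was -0.21 for Col8a1 (SE 0.12) and -0.32 for Col8a2 (SE 0.09, limma adjusted p = 0.0512), and Col8a2 passed on reads at -0.30 (SE 0.07, adjusted p = 0.0119) with groups that did not overlap. The scarce chains Col6a4, Col6a5 and Col6a6 were below the TPM filter.

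Fibril-associated chains went in both directions. Col12a1, which coats type I fibrils and is abundant where tissue bears tension, was at 10.4, 9.48, 10.9, 10.4 and 10.4 TPM without and at 11.8, 12.02, 13.1 and 14.2 TPM with the antibody. All antibody libraries were above all bacterium libraries. It rose by 0.28 on log2(TPM + 1) (SE 0.07, limma adjusted p = 0.0281) and by 0.34 on reads (SE 0.07, adjusted p = 0.00395). With a library left out, the call on TPM held in 3 of the 9 fits and the call on reads in all 9.

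Col14a1, a relative of Col12a1 that binds to fibrils in the same way, was at 3.41, 3.52, 3.33, 3.82 and 2.61 TPM without and at 3.74, 2.99, 2.65 and 2.67 TPM with the antibody, and was not called. Col20a1, a less studied chain of the same family, was at 2.98, 3.43, 2.86, 3.75 and 2.73 TPM without and at 2.28, 2.19, 2.07 and 2.49 TPM with the antibody. Its groups did not overlap and it fell by 0.35 (SE 0.09, adjusted p = 0.0356).

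Col16a1 was at 18.4, 21.0, 18.9, 24.1 and 17.5 TPM without and at 15.7, 15.6, 16.9 and 16.0 TPM with the antibody, again without overlap. Its change of -0.29 (SE 0.09) missed the threshold on TPM (limma adjusted p = 0.0656) and passed on reads at -0.27 (SE 0.07, adjusted p = 0.0136). Col22a1, a chain of tissue junctions such as that between muscle and tendon, lay below the TPM filter but had between 82 and 171 reads per library. It was at 12.2 ± 1.46 RPM (SD, n = 5) without and 8.00 ± 1.14 (SD, n = 4) with the antibody, and the change was -0.61 (SE 0.12, adjusted p = 0.00443). Of 6 skeletal muscle markers Actn3 fell on TPM, and Actn3, Ckm and Myh4 fell on reads, where the median change of the list was -0.48. The list summed to between 782 and 1062 RPM without and between 528 and 927 with the antibody, with none at 0. Its part in the change of Col22a1 was not tested.

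**Figure D4:**
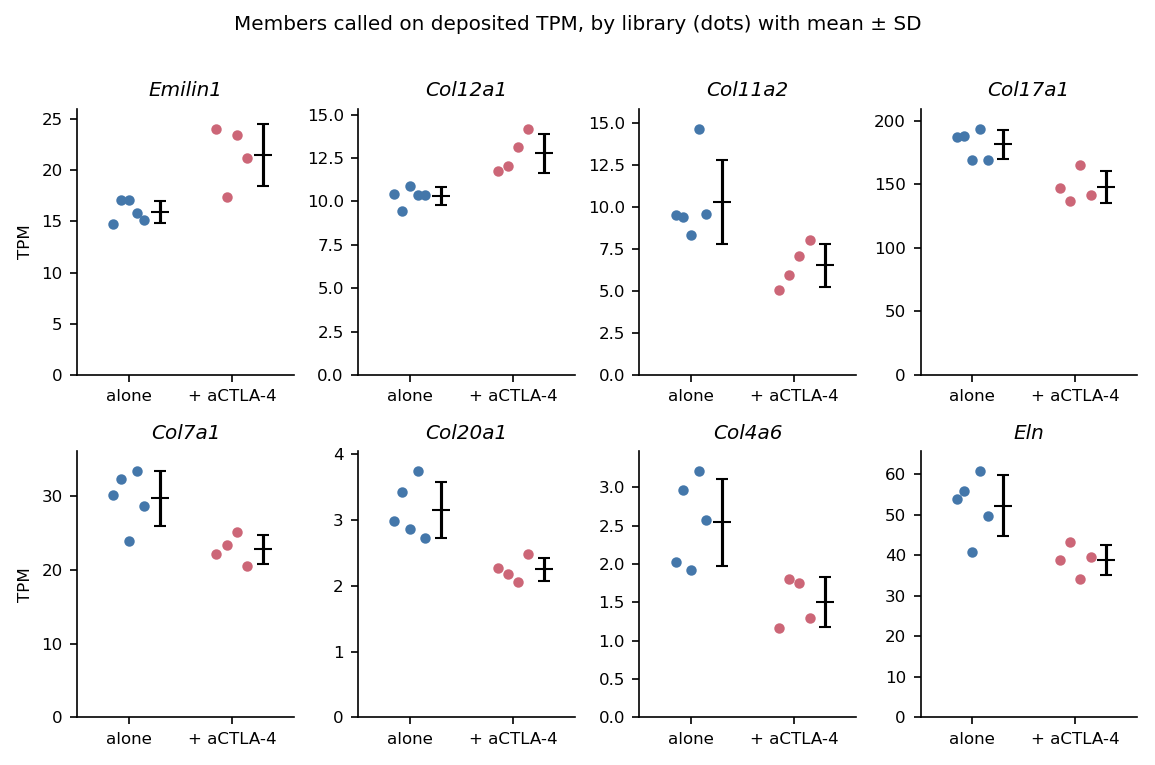
TPM in each library (dots; alone, the bacterium group, and + aCTLA-4, the antibody group) with mean and SD for the 8 members that passed on log2(TPM + 1). Emilin1 and Col12a1 are higher in every antibody library, Col11a2, Col17a1, Col20a1 and Col4a6 are lower in every one, and Col7a1 and Eln overlap at bacterium replicate 3.

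Among the cartilage chains 1 of 7 was called on TPM and 2 on reads, all lower, where 4.48% and 7.33% of all genes were lower. Col11a2, a chain of the thin type XI and type II fibrils, was at 9.49, 9.40, 8.31, 14.6 and 9.58 TPM without and at 5.07, 5.91, 7.09 and 8.00 TPM with the antibody. The groups did not overlap, and bacterium replicate 4 stood well above the rest of its group. The change was -0.58 on log2(TPM + 1) (SE 0.16, limma adjusted p = 0.04998) and -0.61 on reads (SE 0.15, adjusted p = 0.0114). Without bacterium replicate 4 the change on TPM was -0.45 (adjusted p = 0.0564), and the call on TPM was lost.

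Col9a1, a type IX chain on the surface of cartilage fibrils, was lower on reads at -0.63 (SE 0.15, limma adjusted p = 0.0124), with 21.9 ± 4.83 RPM (SD, n = 5) without and 14.1 ± 2.35 (SD, n = 4) with the antibody. It was not called on TPM (adjusted p = 0.0630). Its partner chain Col9a3 was at 7.67, 8.41, 7.04, 12.9 and 6.16 TPM without and at 5.03, 5.48, 5.18 and 8.58 TPM with the antibody, with overlap, and was not called.

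Col2a1, the main collagen of cartilage, was at 4.16, 4.47, 3.72, 5.88 and 3.59 TPM without and at 3.91, 3.17, 3.89 and 6.91 TPM with the antibody. The groups overlapped, and antibody replicate 4 was the highest of all libraries. The means were 4.36 ± 0.917 TPM (SD, n = 5) and 4.47 ± 1.66 TPM (SD, n = 4), with a log2(TPM + 1) change of 0.00 (SE 0.19) that was -0.19 without antibody replicate 4 (limma adjusted p = 0.467). Per exonic kilobase the ratio of Col11a2 to Col2a1 was between 1.61 and 2.05 without and between 0.887 and 1.43 with the antibody, given with no test. Col10a1, a marker of mature cartilage cells, was at 10.8, 11.9, 10.9, 14.2 and 13.1 TPM without and at 11.9, 10.9, 11.9 and 17.8 TPM with the antibody. Its row lies wholly inside Nt5dc1 on the opposite strand, which held 11393 reads against 1266 over the 9 libraries, and reads of the 2 genes cannot be told apart.

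Bacterium replicate 4 was the highest of its group in TPM for all 7 cartilage chains, and in RPM for 6. Of 10 chondrocyte markers tested, a list that also holds Col2a1, Cytl1 fell and none rose on TPM, and on reads Cytl1 and Matn4 fell and none rose. The list summed to between 553 and 722 RPM without and between 482 and 627 with the antibody. Matn1, a defining marker, was at 0 in bacterium replicate 1 and antibody replicate 3. The part of the amount of cartilage in each piece of ear in these changes was not tested.

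Of the transmembrane and other chains only Col23a1 reached the TPM filter. It was at 2.54, 1.95, 2.42, 2.29 and 2.60 TPM without and at 2.54, 2.00, 2.43 and 2.79 TPM with the antibody, and the groups lay over each other. Col25a1, a chain of neurons and developing muscle, was at 0.446, 0.468, 0.479, 0.723 and 0.488 TPM without and at 0.374, 0.407, 0.357 and 0.417 TPM with the antibody. These low values stood for 213 to 446 reads per library. The groups did not overlap, and the change on reads was -0.37 (SE 0.12, limma adjusted p = 0.0480), a call that held in 1 of the 9 fits with a library left out. Col13a1, a chain of cell adhesion sites, was at 0.412, 0.478, 0.522, 0.598 and 0.481 TPM without and at 0.397, 0.394, 0.484 and 0.411 TPM with the antibody, and was not called.

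Of the 10 elastic fibre genes Emilin1 rose and Eln fell on TPM, where 7.16% of all genes were higher and 4.48% lower. On reads Lox and Loxl1 rose as well, where 11.1% of all genes were higher and 7.33% lower. Eln, the core protein of the fibre (chr5:134702595-134747323, minus strand) was at 53.9, 55.8, 40.9, 60.7 and 49.8 TPM without and at 38.7, 43.2, 34.2 and 39.5 TPM with the antibody. Bacterium replicate 3 lay within the antibody range, and the other 4 were above it. The means were 52.2 ± 7.47 TPM (SD, n = 5) and 38.9 ± 3.71 TPM (SD, n = 4), a change of -0.41 on log2(TPM + 1) (SE 0.11, limma adjusted p = 0.0475). On reads the change was -0.38 (SE 0.10, adjusted p = 0.0187), and this call was lost without antibody replicate 3 (0.0587).

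Emilin1 (chr5:30913786-30921273, plus strand), a glycoprotein at the border of elastin and microfibrils, was at 14.7, 17.1, 17.1, 15.8 and 15.2 TPM without and at 24.1, 17.4, 23.5 and 21.2 TPM with the antibody. The groups did not overlap, although antibody replicate 2 lay just above the bacterium range. It rose by 0.40 on log2(TPM + 1) (SE 0.10, limma adjusted p = 0.0276) and by 0.46 on reads (SE 0.10, adjusted p = 0.00870).

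The cross-linking enzymes were higher on reads. Lox was at 38.0, 37.3, 28.9, 36.0 and 28.2 TPM without and at 38.2, 43.2, 41.6 and 45.6 TPM with the antibody. Loxl1, which acts on elastin in particular, was at 8.87, 11.7, 10.8, 9.67 and 8.06 TPM without and at 11.7, 13.0, 12.7 and 11.8 TPM with the antibody. For both genes all antibody libraries were above all bacterium libraries, by a narrow margin for the nearest libraries. On reads the changes were 0.37 for Lox (SE 0.09, limma adjusted p = 0.0144) and 0.38 for Loxl1 (SE 0.10, adjusted p = 0.0174), and these calls held with each library left out. On log2(TPM + 1) they were 0.32 and 0.31 and missed the threshold (adjusted p = 0.0809 and 0.0774). Loxl2, a related oxidase, was at 1.53, 2.96, 2.25, 2.89 and 2.27 TPM without and at 2.78, 3.08, 2.89 and 1.92 TPM with the antibody, with full overlap.

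Per exonic kilobase the ratio of Lox to Eln was between 0.140 and 0.174 in the bacterium libraries and between 0.243 and 0.300 in the antibody libraries. The ratio of Loxl1 to Eln was between 0.106 and 0.176 without and between 0.200 and 0.248 with the antibody. These ratios share Eln and are given as descriptions with no test. Neither ratio overlapped between the groups, but these genes were already seen to move apart on reads, so this adds no evidence. The ratio of the fibrillin Fbn1, which was not called, to Eln did not overlap either. It was between 0.391 and 0.615 without and between 0.630 and 0.848 with the antibody.

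The microfibril scaffold was not called. Fbn1, the main fibrillin of adult tissue, was at 14.3, 19.8, 17.0, 18.8 and 15.03 TPM without and at 19.3, 18.4, 19.6 and 17.6 TPM with the antibody. Fbn2, the fibrillin most prominent in development, was at 3.65, 3.40, 2.92, 4.20 and 3.39 TPM without and at 3.26, 3.55, 3.74 and 4.66 TPM with the antibody. In both genes the groups overlapped, with changes of 0.14 (SE 0.10) and 0.09 (SE 0.11).

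Of the fibulins, Fbln5, which brings elastin to microfibrils, was at 3.71, 4.66, 3.88, 4.67 and 3.80 TPM without and at 4.47, 3.92, 4.62 and 4.32 TPM with the antibody. Fbln1 was at 3.56, 4.04, 3.11, 3.75 and 3.30 TPM without and at 3.76, 3.73, 3.69 and 3.92 TPM with the antibody. Fbln2 was at 10.4, 11.9, 11.5, 12.2 and 10.1 TPM without and at 11.8, 11.1, 11.1 and 9.17 TPM with the antibody. The groups overlapped for all 3 fibulins, with changes of 0.05, 0.07 and -0.05 and standard errors of 0.07 or 0.08.

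**Figure D5:**
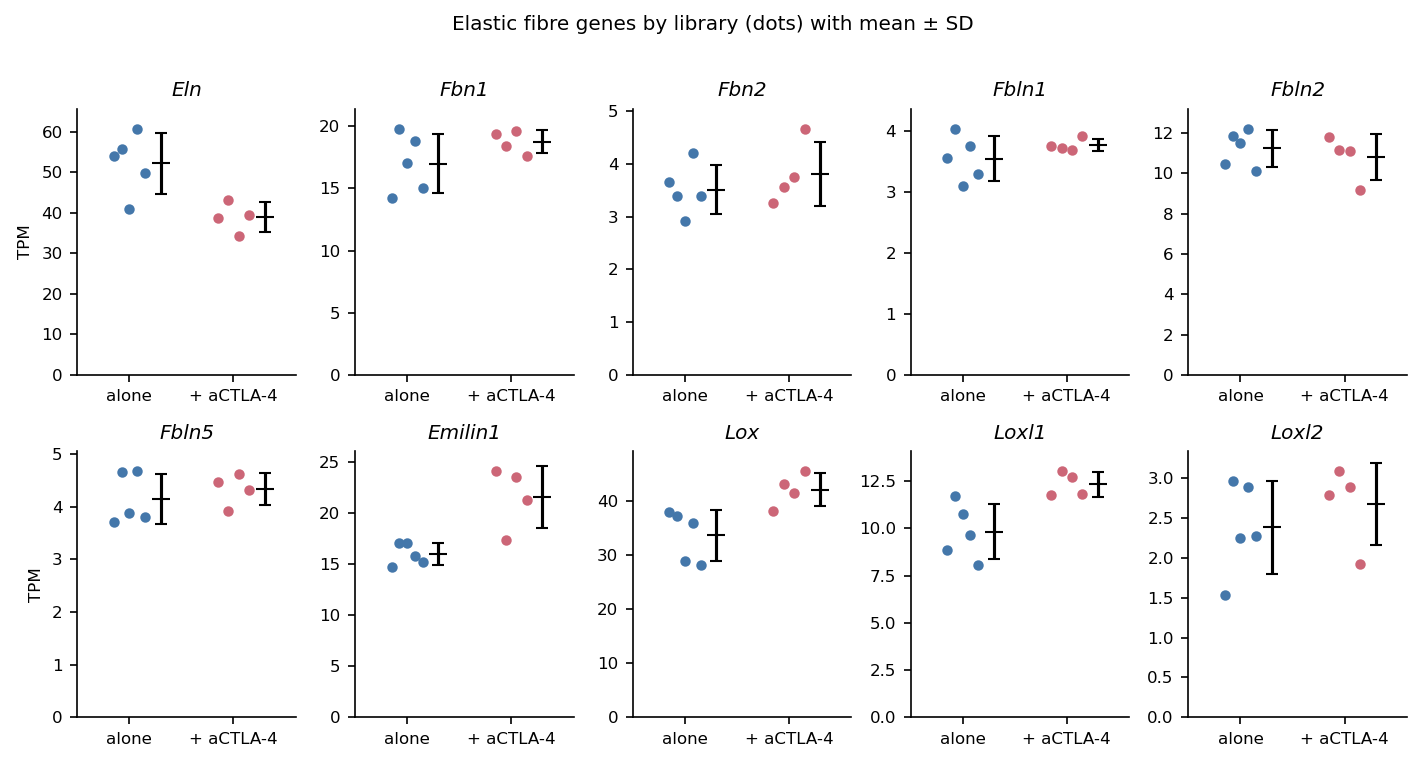
TPM in each library (dots; alone, the bacterium group, and + aCTLA-4, the antibody group) with mean and SD for the 10 elastic fibre genes. Eln is lower in the antibody group except for overlap at bacterium replicate 3, Emilin1, Lox and Loxl1 are higher in every antibody library, and the fibrillins, fibulins and Loxl2 overlap.

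Below the TPM filter lay 12 members, 11 of them with at least 10 reads in at least 4 libraries. An exact two-sided permutation test of log2(TPM + 1), computed for each of the 12, gave p = 0.00794 for Col22a1, which is the smallest p that 5 against 4 libraries allow. It gave p = 0.0159 for Col25a1 and p = 0.0238 for Col24a1 in the same exact test, and none of the 12 passed after Benjamini-Hochberg adjustment over them (the lowest adjusted value was 0.0952). All 3 were lower with the antibody.

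Genes that make, process and bind these proteins were described from 6 lists of 72 genes, of which 70 were tested on TPM. Enzymes and chaperones that fold collagen in the endoplasmic reticulum changed in 4 of 17 tested genes, 3 higher and 1 lower, where 7.16% of all genes were higher and 4.48% lower. Plod3, a lysyl hydroxylase, was at 16.7 ± 0.588 TPM (SD, n = 5) without and 22.3 ± 1.75 TPM (SD, n = 4) with the antibody (change 0.39, limma adjusted p = 0.00567), and Plod1, a related enzyme, changed by 0.38 (adjusted p = 0.0127). P4hb, a subunit of prolyl hydroxylase, was higher at 0.28 (adjusted p = 0.0454). P3h2, a prolyl hydroxylase known to act on type IV collagen, fell by 0.49 (adjusted p = 0.0213). On TPM the calls of Plod3 and Plod1 held in all 9 fits with a library left out, that of P3h2 in 6 and that of P4hb in 2, and on reads each of these held in all 9. On reads 6 of 18 were higher and 1 lower, where 11.1% of all genes were higher and 7.33% lower, and the median change on TPM was 0.19.

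Of 11 tested genes of procollagen processing and secretion none rose, and Pcolce2, an enhancer of procollagen cleavage, and Adamts14, which removes the amino-terminal propeptide, fell by 0.34 and 0.59 (limma adjusted p = 0.0410 and 0.0425). These calls held in 2 and 1 of the 9 fits on TPM with a library left out, and neither gene was called after rescaling without Rn45s and Mir6236. On reads both held in all 9 fits, and 3 of 12 genes of the list were lower, where 7.33% of all genes were lower. Of the 10 small leucine-rich proteoglycans, which bind to fibrils, none was called on either scale, and the lowest p were those of Kera, Fmod and Omd (adjusted p = 0.124, 0.153 and 0.178). Of 12 microfibril and elastic fibre partners, Emilin2 and Efemp1 rose by 0.63 and 0.26 (adjusted p = 0.00533 and 0.0352). Emilin3 and Ltbp4, a partner of Fbln5 in elastic fibre assembly, fell by 0.76 and 0.50 (adjusted p = 0.0181 and 0.0244). With a library left out, the Efemp1 call on TPM held in 2 of the 9 fits and the Ltbp4 call in 6, and those of Emilin2 and Emilin3 in all. On reads 3 of these 12 were higher and 4 lower. Over all genes 7.16% were higher and 4.48% lower on TPM, and 11.1% and 7.33% on reads. The median changes of these 3 lists were -0.06, -0.04 and -0.04.

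Of 8 collagen receptors and uptake genes, Ddr2, a kinase receptor for fibrillar collagen, rose by 0.33 (limma adjusted p = 0.0301). Mrc2, which takes up collagen, and Itga10, a receptor known from cartilage, fell by 0.36 and 0.30 (adjusted p = 0.0362 and 0.0435). These 3 calls on TPM held in 4, 2 and 1 of the 9 fits with a library left out. On reads 3 of the 8 were higher, Ddr2 with the integrin subunits Itga1 and Itgb1 (adjusted p = 0.00336, 0.00494 and 0.00818), and Mrc2 and Itga10 were lower. Over all genes 7.16% were higher and 4.48% lower on TPM, and 11.1% and 7.33% on reads.

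Of 12 genes of the TGF-beta axis and matricellular proteins, 4 rose and none fell on TPM, where 7.16% of all genes were higher and 4.48% lower. Tgfb1, a growth factor, was at 12.8 ± 1.55 TPM (SD, n = 5) without and 18.9 ± 1.40 TPM (SD, n = 4) with the antibody (change 0.53, limma adjusted p = 0.00755). Tnc, a matricellular protein, rose by 0.81 (adjusted p = 0.0172) and the receptor Tgfbr1 by 0.27 (adjusted p = 0.0292). The calls of Tgfb1 and Tnc held in all 9 fits with a library left out and that of Tgfbr1 in 3. On reads 6 of these 12 rose and 1 fell, where 11.1% of all genes were higher and 7.33% lower. The 1 that fell was Tgfb2, a related growth factor, at -0.45 (limma adjusted p = 0.0131), and this call held in all 9 fits on reads. The median change of the list on TPM was 0.17, against -0.10 for the receptors.

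Leukocyte markers rose beside these changes. Of 6 markers 5 were higher on TPM (Ptprc, Cd3e, Cd68, Itgam and Cd14) and all 6 on reads, none was at 0, and their summed level was 268 to 351 RPM without and 486 to 685 with the antibody. Their part in the changes of the members was not tested.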

How the data were processed

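Ear skin RNA of 9 libraries, 5 with the bacterium alone and 4 with anti-CTLA-4, was grouped by sample titles. The submitters' processing notes name STAR, HOMER and DESeq2 and the build mm10, with no version or role. The authors deposited TPM per gene, rounded to 3 decimals. From the values, the length used was the genomic span: over 953 genes with introns, the log2 interquartile range of the lowest TPM was 0.23 when multiplied by span and 1.34 when multiplied by exon length (GENCODE M21). In 163 of 163 genes nested in an intron on the opposite strand and 63 of 63 on the same strand, with more than 200 reads, the host row held at least as many reads, so introns and both strands appear to be counted. Reads recovered from TPM times span gave 100% whole values within 0.1 reads.

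The groups were compared by limma 3.58.1 (R 4.3.3) on log2(TPM + 1), keeping genes that reached 1 TPM in 4 or more libraries (variance trend, no covariate, two-sided, Benjamini-Hochberg over 15704 genes, threshold 0.05). A fold change on this scale understates the change of low genes. Tested on simulated data with log2 changes of 1, the fit recovered changed genes as intended. Those changes were larger than that of any called member, so this does not show its power at the sizes reported here. Added after the data were seen were limma on log2 RPM, reads scaled to 1000000 per library with 0.5 reads added, and its voom version. No count model other than voom on the recovered reads was run, since the deposited unit is not a count. Alternatives covered pseudocount, filters, scaling, variance settings, a replicate block and leaving out each library. Rn45s and Mir6236 took 30.6% to 40.2% of listed TPM and 6.35% to 8.66% of reads.

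The members and lists were chosen with earlier results of these data known. Named with values are all members called on TPM, the 3 of highest mean TPM in each class, the elastic fibre genes and, of each pathway list, up to 3 genes of smallest p plus all those called where these are 3 or fewer. Members called on reads only that fall outside this rule (Col4a2, Col4a5, Col8a2, Col9a1, Col22a1, Col27a1), the other members named outside it (such as Col2a1, Col24a1 and Col6a5), as well as P4hb, Efemp1, Itga1, Itgb1 and Tgfb2 and single marker genes, were named after their values were seen. The values of 1 gene counted in a pathway list are not reported here.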

Additional observations from a re-analysis of the deposited data

Results flagged for a closer look

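In 48 members, 96 groups were searched for a library far from the others, by the gap to its nearest neighbour over the whole range of the group (Dixon's 95% limit). Chance flags about 1 in 20 groups, and 8 were found. Bacterium replicate 4 was highest for 4 of them, with Col11a2 at 14.6 TPM (others 8.31 to 9.58), Col9a1 at 4.40 TPM (others 2.55 to 2.99), Col11a1 at 3.51 TPM (others 2.49 to 2.78) and Col25a1 at 0.723 TPM (others 0.446 to 0.488). Antibody replicate 4 was highest for 2 more cartilage chains, with Col10a1 at 17.8 TPM (others 10.9 to 11.9) and Col9a3 at 8.58 TPM (others 5.03 to 5.48). Antibody replicate 1 was highest for Col6a2 at 118 TPM (others 97.6 to 99.7). Bacterium replicate 1 was highest for Col6a5 at 1.02 TPM (others 0.0190 to 0.283).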

How the results depend on the processing

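Of the 8 calls on TPM, all kept their direction with the replicate number as a block, and the numbers did not pair the samples (correlations of same-numbered libraries -0.01, 0.02, -0.09 and -0.09; no antibody library correlated best with its own number). The replicate block called 0 members higher and 1 lower, 593 and 88 of all genes, and 3 and 0 pathway genes. With 2 members higher and 6 lower on TPM, recovered reads gave 6 and 13, with 1831 and 1210 of all genes and 18 and 11 pathway genes, and voom gave 6 and 14, 1766 and 1483, and 17 and 13. Quantile normalization gave 4 and 10 members, 1429 genes lower and 13 pathway genes lower; a common median 10 members, 1313 genes and 12 pathway genes lower; and leaving out the 50 most abundant genes 10, 1306 and 11 lower. Without Rn45s and Mir6236 4 members were higher. Rescaled to equal listed totals without the members, 0 were lower (3 pathway genes). The members summed to a mean of 2143 TPM without and 2203 TPM with the antibody, of listed totals of 696393 to 728933. This setting therefore mainly equalized the listed totals. With no expression filter 2 were lower (3 pathway genes), and with no variance trend or with array weights 3 were lower. At a threshold of 0.1, 5 members were higher and 10 lower, 1260 genes were lower, and 17 and 11 pathway genes were called. The cause of these differences was not tested.

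Leaving out 1 library at a time gave 0 to 2 members higher and 0 to 7 lower, 706 to 1094 and 337 to 703 of all genes, and 6 to 8 and 1 to 9 pathway genes on TPM. On reads it gave 5 to 8 and 10 to 13 members, 1373 to 1902 and 856 to 1192 genes, and 13 to 19 and 7 to 12 pathway genes. Members under the TPM filter with an unadjusted p under 0.05 numbered 1 to 4. Among the 42 members tested on TPM, those whose change took the other sign under an alternative were called neither on TPM nor on reads. Col1a1 was at -0.0298 with quantile normalization, and Col6a1 at -0.0073 without the 50 most abundant genes and -0.0340 with the replicate block. Without Rn45s and Mir6236 and on reads, Col5a3 was at 0.0190 and 0.0266 and Col15a1 at 0.0083 and 0.0147. Col2a1 was at -0.0051 and -0.0020 with pseudocounts of 0.1 and 0.5, -0.0339 with quantile normalization, -0.0074 with a common median, -0.0167 without the 50 most abundant genes and -0.0517 with the replicate block. With a library left out, on TPM or reads, the ranges that crossed 0 were Col23a1 (-0.0150 to 0.171), Col1a2 (-0.113 to 0.0604), Col10a1 (-0.0652 to 0.198), Fbln2 (-0.0934 to 0.0496), Col6a1 (-0.0340 to 0.0824), Col2a1 (-0.206 to 0.170), Col5a1 (-0.118 to 0.0529), Col5a3 (-0.0532 to 0.0784) and Col15a1 (-0.0661 to 0.0795).

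Precision is set by 5 and 4 libraries, with no batch in the labels. Levels between genes include reads in introns, so they mix spliced and unspliced RNA.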

Other observations

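Col6a5 and Col6a6, minor type VI chains that lie near each other on chromosome 9, varied widely between libraries of the same group. Col6a5 had 164, 6, 47, 3 and 3 reads in the bacterium libraries and 21, 2, 46 and 25 reads in the antibody libraries. Col6a6 had 87, 51, 37, 38 and 20 reads in the bacterium libraries and 30, 22, 25 and 30 in the antibody libraries. Bacterium replicate 1 was the highest library for both genes, while it was the highest of its group for none of the 8 fibrillar chains. Neither gene was called on reads (limma adjusted p = 0.945 and 0.192).

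In TPM, bacterium replicate 4 was the highest of its group for 6 of 8 fibrillar, 7 of 7 cartilage and 5 of 6 fibril-associated chains, and bacterium replicate 2 for 5 of 10 elastic fibre genes. In RPM, bacterium replicate 2 was the highest for 5 of 8 fibrillar chains and bacterium replicate 4 for 2. These orders describe single libraries and were not compared between groups.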
